A study of Mus musculus with 3 samples.

Results

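The genes described here encode the oxidative phosphorylation system, from the nuclear and from the mitochondrial genome. Members were taken by name from the rows typed as protein coding. The names began with mt-, Ndufa, Ndufb, Ndufc, Ndufs, Ndufv, Uqcr, Cox4i, Cox5, Cox6, Cox7, Cox8 or Atp5, or were Sdha, Sdhb, Sdhc, Sdhd or Cycs. This gave 109 of the 37646 genes in each library, of which 96 are nuclear and 13 are mitochondrially encoded. The rule uses names and no measured value. Of the nuclear members, 36 were classed as subunits of complex I, 4 of complex II, 8 of complex III, 19 of complex IV and 17 of complex V. Ndufa4 and Ndufa4l2 were placed in complex IV despite their prefix. Cytochrome c (Cycs), 8 complex I assembly factors (Ndufaf1 to Ndufaf8), the supercomplex factor Cox7a2l and 2 genes with a pseudogene-style symbol, Cox5b-ps and Ndufb1-ps, make up the rest.

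RNA was counted in 3 splenic lymphomas of the pBIC mouse on the C57BL/6 strain, 1 library each, called tumours 1, 2 and 3. The genotype is p53F/F; Blimp1F/F; IKK2castopF/stopF; Cg1Cre/+, so all tumours share floxed p53 and Blimp1 alleles, a conditional active IKK2 allele and Cre driven from the C gamma 1 locus, which acts in activated B cells. The labels present the mouse as a model of ABC-DLBCL, the activated B cell type of diffuse large B cell lymphoma. Spleens came from moribund mice whose age and treatment are not given, and B220+GFP+ cells were sorted from them after red cells were lysed and dead cells gated out. Polyadenylated RNA was sequenced as single reads of 50 bases. Normal germinal centre B cells, named in the series' design as controls, were not analysed here. The tumours therefore form 1 group, and the values below compare genes within a tumour and tumours with each other. The labels do not state outright that the tumours came from unrelated animals, so the test of spread below measures the spread between these samples.

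Oxidative phosphorylation passes electrons from NADH and succinate through complexes I, II and III, cytochrome c and complex IV to oxygen, and complex V uses the resulting proton gradient to make ATP. Complexes I, III, IV and V are built from nuclear subunits and from a small set of subunits encoded in mitochondrial DNA, whereas complex II is nuclear only. Mitochondrial messengers are cut from long transcripts of either strand of the mitochondrial genome, and nuclear subunits are imported as proteins, so both genomes must supply each mixed complex. In B cells, respiration rises on activation and supports growth and division.

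Total counts were 15141009, 15022902 and 15074513 in tumours 1, 2 and 3, so CPM (counts scaled to a library total of 1000000) is nearly the same scale in each. A gene with no count could be present at up to 3 counts, 0.198 to 0.200 CPM, which covers counting error only. The B cell markers Cd79a, Cd79b, Ms4a1, Ptprc and Pax5 were present in every tumour and summed to 3081 CPM in tumour 1, 1602 CPM in tumour 2 and 1408 CPM in tumour 3. None of the 24 markers of other cell types was at 0 in all tumours. T cell, macrophage and neutrophil markers summed to at most 34.2, 8.78 and 54.6 CPM in any tumour, and erythroid markers reached 143 CPM in tumour 3. Prdm1, the gene of the floxed Blimp1 allele, had 6.54, 19.2 and 9.49 CPM, which checks nothing without control samples.

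The mitochondrially encoded genes fell into an abundant set and a set at or near 0. mt-Co1, the catalytic subunit of complex IV (chrM, 5328 to 6872), had 273662, 224485 and 283570 counts in tumours 1, 2 and 3. mt-Nd1, a membrane subunit of complex I (2751 to 3707), had 159084, 156719 and 146248 counts, and mt-Cytb, the cytochrome b of complex III (14145 to 15288), had 147325, 155642 and 125788. Counts were also high for mt-Nd2, mt-Nd4, mt-Nd5 and mt-Nd6, further subunits of complex I, with 11613 counts or more in every tumour. By contrast mt-Co2 (7013 to 7696), mt-Atp8 (7766 to 7969), mt-Atp6 (7927 to 8607) and mt-Co3 (8607 to 9390) had 0 counts in all 3 tumours. mt-Nd3 (9459 to 9806) had 0, 3 and 3 counts and mt-Nd4l (9877 to 10173) had 0, 0 and 1. These 6 genes are neighbours on the mitochondrial genome, between mt-Co1 and mt-Nd4.

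Of these 6 genes, 5 have near-complete copies of their sequence in the annotated nuclear genome. Each 50-base window, the read length, was looked up in all annotated transcripts on both strands. In mt-Co2, 100% of windows were also found at another locus, in mt-Co3 99.9%, in mt-Atp6 99.5%, in mt-Nd4l 98.8% and in mt-Nd3 98.0%. The share was 62.2% in mt-Nd4, 51.1% in mt-Co1, 8.19% in mt-Nd2 and 7.61% in mt-Nd5. It was 0% in mt-Nd1, mt-Nd6 and mt-Cytb, and also 0% in mt-Atp8, although mt-Atp8 had no count either. mt-Atp8 lies between mt-Co2 and mt-Atp6, and 43 of its 204 bases overlap mt-Atp6. Copies of both neighbours lie on chromosome 1, that of mt-Atp6 at 24613974 to 24614651 and that of mt-Co2 at 24614885 to 24615565, and the stretch between them was not looked up.

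**Figure D1:**
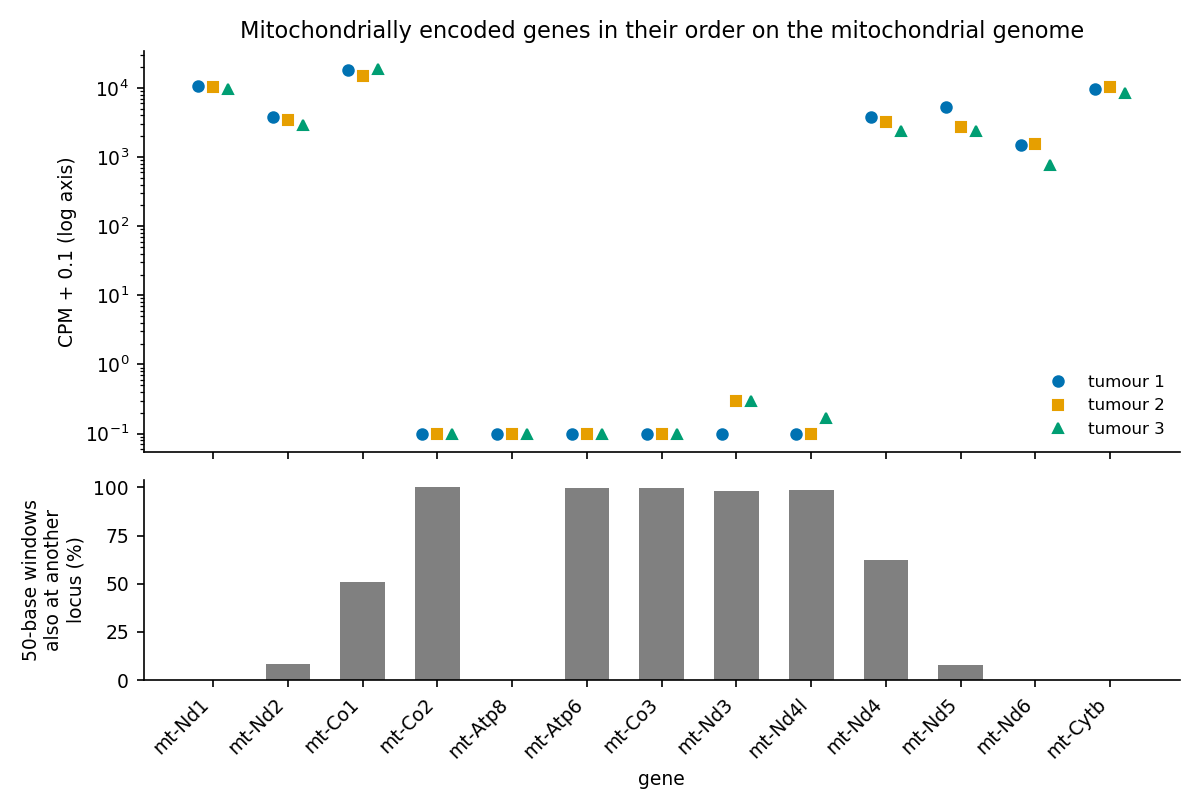
CPM plus 0.1 on a log axis (upper panel) and the percent of 50-base windows also found at another annotated locus (lower panel) for the 13 mitochondrially encoded genes in genome order; each point is 1 tumour. The genes from mt-Co2 to mt-Nd4l sit at or near 0, and all of them except mt-Atp8 have 98.0% or more of their windows repeated.

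The sequences show how little separates the mitochondrial genes from their copies. The first 60 bases of mt-Co2 are shown with the same stretch of Gm28661 (chr1:24615506-24615565, reverse strand) and of Gm13341 (chr2:22587903-22587962, reverse strand), as annotated on GRCm38. Capitals mark bases that differ from mt-Co2, counted from the first base of the gene (C25T and G57A in Gm13341).
mt-Co2: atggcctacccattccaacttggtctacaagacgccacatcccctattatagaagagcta
Gm28661: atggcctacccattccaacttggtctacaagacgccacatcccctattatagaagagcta
Gm13341: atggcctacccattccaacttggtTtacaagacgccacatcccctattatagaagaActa

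Gm28661 matched mt-Co2 at 681 of 681 aligned bases, and Gm13341 at 656 of 672. The copies themselves had few counts. Gm28661 had 19, 20 and 12 counts in tumours 1, 2 and 3, and Gm13341 had 95, 71 and 90. The identical copies of mt-Co3 (Gm28437, 783 of 783 bases), mt-Atp6 (Gm10925, 678 of 678), mt-Nd3 (Gm28438, 342 of 342) and mt-Nd4l (Gm10222, 294 of 294) had 0 to 12 counts per tumour. All 5 of these exact copies lie on chromosome 1 within chr1:24612407-24615565. Neither the 5 mitochondrial genes nor their exact copies held more than 20 counts in any tumour. How reads that fit more than 1 place were treated is not known here, and its part in the 0 values was not tested. The values of the 6 genes are therefore not read as their levels.

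In mt-Nd4 and mt-Co1 the copies on chromosome 1 cover part of the gene. mt-Co1 also has a full-length copy on chromosome 2, Gm13340, which matched at 1508 of 1545 bases and had 128, 117 and 143 counts. Gm28439 on chromosome 1 matches the first 876 of 1378 bases of mt-Nd4, and the gene kept 57332, 48071 and 35591 counts. The next lines show mt-Nd4 across the end of that match (chrM:11003-11082, capitals beyond the copy), then mt-Co1 and its copy Gm29216 where their match begins (chrM:6390-6449 and chr1:24616129-24616188, 1 difference, A1066T, in capitals). The opening bases of mt-Nd1 (chrM:2751-2810), a gene with no exact 50-base match in another annotated transcript, follow.
mt-Nd4: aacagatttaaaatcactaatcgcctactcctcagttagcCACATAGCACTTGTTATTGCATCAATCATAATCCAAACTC
mt-Co1: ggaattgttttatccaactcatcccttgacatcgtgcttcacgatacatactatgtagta
Gm29216: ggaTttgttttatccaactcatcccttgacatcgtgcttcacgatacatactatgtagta
mt-Nd1: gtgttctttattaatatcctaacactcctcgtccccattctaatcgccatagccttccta

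Among the 7 abundant mitochondrial genes, mt-Nd5 and mt-Nd6 differed most between tumours. mt-Nd5 had 5247 CPM in tumour 1, 2703 CPM in tumour 2 and 2375 CPM in tumour 3, a 2.21-fold range with tumour 1 apart from the others. Its unadjusted p in the edgeR test of spread between tumours was 0.0431, the smallest of the members, and its adjusted p was 0.768. mt-Nd6, the one member on the opposite strand to the others, had 1498, 1550.0 and 770.4 CPM, with tumour 3 lowest (edgeR adjusted p 0.901). mt-Nd5 (11742 to 13565) and mt-Nd6 (13552 to 14070, opposite strand) overlap at their ends by 14 bases, 0.77% of mt-Nd5 and 2.70% of mt-Nd6. Reads there cannot be assigned unless strand was used, which is not known. If strand was not used, reads from the long transcript of the other strand would count for mt-Nd6 along its whole length. The values of mt-Nd6 may therefore not be its own level. mt-Nd1 varied least, with 10507, 10432 and 9702 CPM and a 1.08-fold range. mt-Co1 was highest in tumour 3 (18811 CPM) and lowest in tumour 2 (14943 CPM), whereas the other 6 genes were lowest in tumour 3. The share of genes tested that were lowest in tumour 3 was 30.9%.

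As a share of all counts, the 13 mitochondrial genes took 5.27% in tumour 1, 4.66% in tumour 2 and 4.52% in tumour 3. The exact binomial 95% intervals (Clopper-Pearson) were 5.26 to 5.28%, 4.65 to 4.67% and 4.51 to 4.53%. These and the next intervals cover counting error only and not the spread between tumours. The 96 nuclear members took 1.03%, 1.67% and 1.57%, with intervals of 1.02 to 1.03%, 1.66 to 1.67% and 1.56 to 1.58%. Mitochondrial counts thus exceeded nuclear counts 5.12-fold in tumour 1, 2.80-fold in tumour 2 and 2.88-fold in tumour 3. The genes from mt-Co2 to mt-Nd4l, at or near 0, add almost nothing to these mitochondrial shares and ratios. Both therefore rest on the other 7 mitochondrial genes and are not read as the whole mitochondrial output. The mitochondrial share was 4.82% ± 0.397 and the nuclear share 1.42% ± 0.344 (SD, n = 3). The 2 shares moved in opposite directions between tumour 1 and the other tumours. In sorted bulk cells, fewer mitochondria or cells of a kind and less RNA per cell cannot be told apart.

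Levels of different genes were compared in TPM, counts divided by the summed exon length of the gene and scaled to the same total in each tumour. The order of genes within a class rests on that length. Over members above 1 CPM in every tumour, the median of the 7 counted mitochondrial genes exceeded that of nuclear subunits of complexes I, III, IV and V by 6.35, 5.42 and 5.21 in log2(TPM + 1) in tumours 1, 2 and 3, a mean of 5.66 ± 0.61 (SD, n = 3). Over all members, with the 6 genes near 0 included, the difference was 4.89 ± 0.98. mt-Co1 had 33756 ± 5346 TPM, mt-Nd1 32138 ± 2637 and mt-Cytb 24924 ± 2879. Per 1000 windows not found at another locus, mt-Co1 had 23633.5 CPM, mt-Nd1 11248.4 and mt-Cytb 8655.99. The closeness of mt-Co1 and mt-Nd1 in TPM thus rests on the length used. The most abundant nuclear member, Atp5a1, had 1557 ± 249.6 TPM.

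No complex I gene fell below 1 CPM in any tumour, and the median of the 36 was 129.7, 182 and 190.1 TPM in tumours 1, 2 and 3. Among core subunits of the matrix arm, which takes electrons from NADH, Ndufs8 had 298 ± 85.6 TPM, Ndufs7 181 ± 48.5, Ndufv1 169.5 ± 34.5, Ndufs3 95.8 ± 16.3 and Ndufs1 45.1 ± 3.95. Ndufs1 (chr1:63143596-63176833) had 119, 135 and 110.2 CPM and was 1 of 3 complex I genes lowest in tumour 3. The highest member of the class was the accessory gene Ndufc2 (chr7:97400003-97407802) with 109, 205 and 184 CPM and 656 ± 168 TPM. The lowest was Ndufb2, with 12.7, 14.1 and 10.2 CPM and 6.60 ± 1.04 TPM, followed by Ndufab1, the mitochondrial acyl carrier protein, with 7.03 ± 1.78 TPM. Both have long summed exons, 5628 and 6883 nt, by which TPM divides.

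Complex II, which oxidises succinate and has no mitochondrially encoded part, had all 4 genes above 100 TPM on average over the tumours. Sdhd, a membrane anchor, had 499.7 ± 130.4 TPM, and the iron-sulfur subunit Sdhb 263 ± 77.8. The flavoprotein subunit Sdha had 208 ± 22.6 TPM and the anchor Sdhc 110.1 ± 24.8. Sdha stood apart between tumours, with 271, 332 and 256 CPM and its lowest value in tumour 3, whereas Sdhb had 122, 250.1 and 223 CPM and its lowest value in tumour 1. The class median was above that of complex I in every tumour, on average 1.39-fold (0.48 ± 0.15 on the log2(TPM + 1) scale).

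All 8 nuclear complex III genes were detected. The small subunit Uqcr10 led with 1292 ± 352 TPM, and Uqcrb was lowest with 105 ± 16.8. The Rieske iron-sulfur protein Uqcrfs1 had 398 ± 94.5 TPM, and the core proteins Uqcrc2 and Uqcrc1 had 290.1 ± 25.7 and 224 ± 44.8. The class median exceeded that of complex I by 0.71, 0.78 and 0.71, a mean of 0.73 ± 0.04 (SD, n = 3) or 1.66-fold. Cyc1, the cytochrome c1 of the same complex, which the naming rule leaves out, had 337 ± 71.3 TPM.

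Complex IV, the oxygen-reducing end of the chain, held some of the most abundant nuclear members and all 4 that had no count. Of its 19 genes 12 reached 1 CPM in every tumour. Cox8a had 1442 ± 357 TPM, Cox6b1 1401 ± 287, Cox4i1 1168 ± 359 and Cox6a1 949 ± 266. The core-associated subunits Cox5a and Cox5b had 236 ± 55.4 and 165 ± 36.7 TPM, and Cox7c was far lower with 35.7 ± 5.47. Over all 19 genes the class median was below that of complex I by 0.93 ± 0.08 in log2(TPM + 1). Over the 12 genes above 1 CPM it was higher by 1.06 ± 0.21. The sign of the difference between complexes IV and I thus depends on whether tissue-specific isoforms count as members, and it also changed with the length used (0.075 with the principal transcript).

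Complex V, the ATP synthase, had all 17 genes above 1 CPM and the largest nuclear share of counts, 0.591% ± 0.134 (SD, n = 3). The catalytic beta subunit Atp5b (chr10:128083273-128090391) had 1522, 2411 and 2224 CPM, and the alpha subunit Atp5a1 1273, 1729 and 1894 CPM. The stalk subunits Atp5c1 and Atp5d followed with 679 ± 124 and 585 ± 148 TPM. The lowest were Atp5l, a membrane subunit, with 4.30 ± 0.237 TPM, and Atp5g2, a gene of the proton-carrying c ring, with 6.59 ± 1.46. This order rests on the length used: the summed exons of Atp5l are 6443 nt and its principal transcript is 544 nt. Per 1000 unrepeated windows of the principal transcript, Atp5l had 58.9 CPM and Atp5g1 4.19 CPM. The class median differed from that of complex I by 0.10, 0.16 and -0.02 in the 3 tumours, a mean of 0.08 ± 0.09 that is smaller than its spread.

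**Figure D2:**
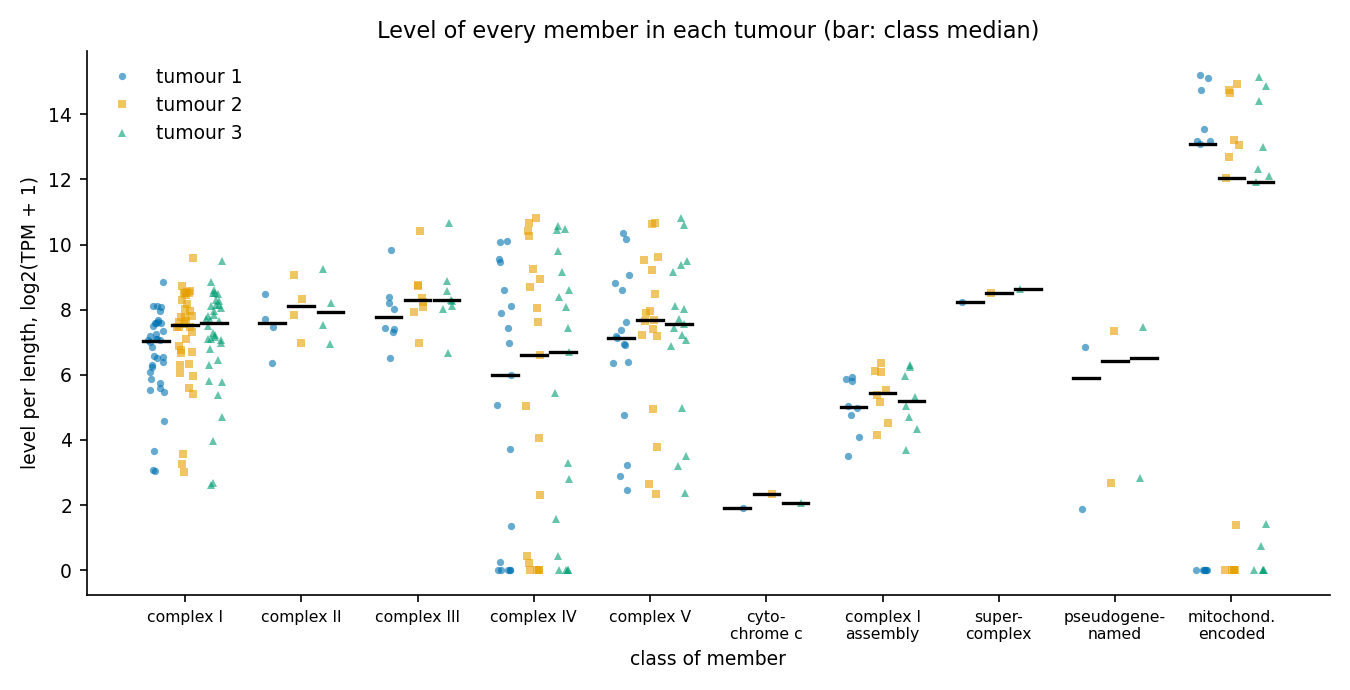
Level of each of the 109 members in log2(TPM + 1), by class, with circles, squares and triangles for tumours 1, 2 and 3 and a bar at the class median. Complexes I to V overlap, complex IV reaches down to 0, and the mitochondrially encoded genes split into a set above 11 and a set below 2.

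Cytochrome c, the mobile carrier between complexes III and IV, was among the lowest members. Cycs (chr6:50562563-50566538) had 45, 73 and 55 counts, 3.35 ± 0.657 TPM. Assembly factors of complex I were lower than its subunits, with a class median of 36.4 ± 5.88 TPM against 167 ± 32.8. They ran from Ndufaf3 with 13.0 ± 3.22 TPM to Ndufaf8 with 73.3 ± 11.1. The supercomplex factor Cox7a2l, linked to complexes III and IV, had 354 ± 49.8 TPM. Counts do not show whether its protein joins them in these mice.

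Of the isoform pairs, the ubiquitous form of complex IV was abundant and the tissue-restricted form at 0 or low in each tumour. Cox4i1 had 5526, 11123 and 10897 counts, and Cox4i2, the form of lung and other oxygen-sensing tissue, had 0 in all. Counts of Cox8a were 3226, 5903 and 4429, against 0 for Cox8b, the form of heart and skeletal muscle, and 0 for the testis form Cox8c. Cox7b had 2212, 3857 and 3508 counts, against 0 for Cox7b2. Set against the level that 3 counts per library would give, Cox4i1 was at least 936-fold higher than Cox4i2 in each tumour, Cox8a at least 625-fold higher than Cox8b and 796-fold higher than Cox8c, and Cox7b at least 329-fold higher than Cox7b2.

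The remaining restricted forms were not at 0. Cox6a2, a heart and muscle form, had 39, 56 and 30 counts, 78.0-fold below Cox6a1 by mean TPM. Cox7a1, also of heart and muscle, had 4, 11 and 16 counts, 101-fold below Cox7a2. The testis form Cox6b2 had 0, 2 and 11 counts and Ndufa4l2, a hypoxia-induced relative of Ndufa4, had 1, 1 and 2. Among the 3 genes of the c ring, Atp5g3 had 3971, 6757 and 7253 counts, Atp5g1 196, 329 and 257, and Atp5g2 51, 46 and 69. Atp5g3 exceeded Atp5g1 51.8-fold by mean TPM. In log2(TPM + 1) all 11 pair differences had the same sign in 3 of 3 tumours. The two-sided exact sign-flip p was 0.25 for each, also after adjustment over the 11 pairs, and is the smallest that 3 tumours allow.

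Several of the low nuclear members have processed copies elsewhere. Of the 96 nuclear members 21 (21.9%) had 10% or more of their 50-base windows at another annotated locus, against 9.47% of the 18599 other protein-coding genes. The share was 87.4% in Atp5g2, 68.5% in Atp5l, 52.95% in Cox7c, 37.0% in Ndufb4, 31.1% in Ndufs5 and 28.5% in Cycs. Among 77 subunits above 1 CPM, median TPM was 65.8 in 10 genes with 25% or more of windows repeated, 171 in 8 genes with 10% to under 25%, and 240.0 in 59 genes under 10%. The Spearman correlation of repeated share and mean TPM was -0.43 across these 77 genes, which share libraries and are not replicates. Atp5h and Uqcrb, with 47.9% and 43.2% of windows repeated, still had 115 and 105 TPM.

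The coding starts of 2 low members with exact copies and 1 with a near-exact copy are shown, 60 bases each, with capitals where the copy differs from the member. They come from Atp5g2 (chr15:102662864-102672352) and Gm10175 (chr7:23946646-23947290), Cycs and Gm10053 (chr19:24875686-24876631), and Cox7c (chr13:86044816-86046904) and Gm10012 (chr17:25901856-25902227).
Atp5g2: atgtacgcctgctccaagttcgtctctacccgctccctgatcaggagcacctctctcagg
Gm10175: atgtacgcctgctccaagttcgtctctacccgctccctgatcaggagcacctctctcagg
Cycs: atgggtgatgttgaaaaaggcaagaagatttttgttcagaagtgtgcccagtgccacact
Gm10053: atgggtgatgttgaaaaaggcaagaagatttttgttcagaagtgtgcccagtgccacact
Cox7c: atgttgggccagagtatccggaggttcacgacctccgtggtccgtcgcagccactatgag
Gm10012: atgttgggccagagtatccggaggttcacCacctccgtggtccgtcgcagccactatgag

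Over the whole coding sequence Atp5g2 and Gm10175 were identical at 438 of 438 bases, Cycs and Gm10053 at 315 of 315, and Cox7c and Gm10012 at 187 of 189. Gm10175 had 7, 4 and 2 counts, Gm10053 17, 21 and 25, and Gm10012 3, 2 and 2. These are the copies that share most windows with each member, and other annotated loci were not counted here. In all, 76 other genes held windows of Cycs, 3 of Cox7c and 2 of Atp5g2. The part of the copies in the low values of Atp5g2, Atp5l, Cox7c and Cycs was not tested. Cox5b-ps, itself a member, shares 211 of its 341 windows with Cox5b and had 5, 11 and 12 counts.

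**Figure D3:**
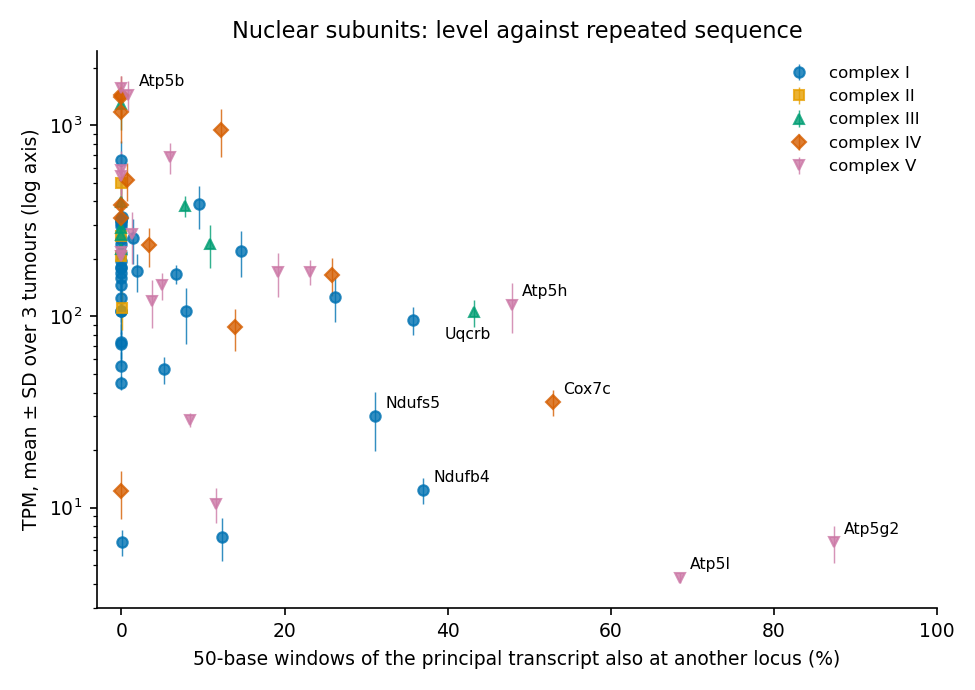
Mean TPM with SD over 3 tumours on a log axis against the percent of 50-base windows of the principal transcript found at another annotated locus, for 77 nuclear subunits above 1 CPM in every tumour. Atp5g2 and Atp5l, with 87.4% and 68.5% of windows repeated, have 6.59 and 4.30 TPM, while genes with few repeated windows spread from 6.60 to 1557 TPM.

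Between tumours, most nuclear members had their lowest level in tumour 1. Of the 88 nuclear members tested, this held for 81, against 29.6% of the 11478 genes tested. Their median difference in log2(CPM + 0.1) was 0.72 for tumour 2 minus tumour 1, 1.65-fold, and 0.59 for tumour 3 minus tumour 1. The median over all genes tested was -0.09 and -0.0045. Tumour 3 minus tumour 2 gave -0.12, with 59 nuclear members highest in tumour 2 and 29 in tumour 3. None of the 88 was highest in tumour 1, where 35.4% of genes tested were. In tumour 2, 11 of the 88 nuclear members were more than 2-fold above tumour 1, against 2.27% of genes tested. In tumour 3 it was 5 of the 88, close to the 4.64% of genes tested.

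No single member passed the test of spread. In edgeR, the spread of each gene over the 3 tumours was set against that of genes of like abundance. This called 16 of 11478 genes (0.139%) at an adjusted p under 0.05 and 0 of 95 members, and 1 member, mt-Nd5, had an unadjusted p under 0.05. On simulated counts for the 11478 genes the test recovered 36% of genes changed 4-fold in 1 tumour and 76.4% of those changed 8-fold. Changed genes were drawn only from those with a mean expected count of at least 50. Each gene was given the dispersion of genes of like abundance, so recovery for other genes was not measured. The median range of a nuclear member from its lowest to its highest tumour was 1.72-fold, near the 1.62-fold of all genes tested. The common shift is described across genes, which are not independent, and carries no p.

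The difference was of like size in each complex. The median of tumour 2 minus tumour 1 was 0.71 in complex I, 0.76 in complex II, 0.68 in complex III, 0.82 in complex IV and 0.75 in complex V. The median of tumour 3 minus tumour 1 was 0.70, 0.79, 0.74, 0.59 and 0.51 in the same order. The number of tested genes lowest in tumour 1 was 33 of 36, 3 of 4, 8 of 8, 11 of 12 and 15 of 17. Complexes I, II and III were thus about as far above tumour 1 in tumour 3 as in tumour 2, whereas the medians of complexes IV and V were smaller in tumour 3. All 8 complex I assembly factors were also lowest in tumour 1, with smaller medians of 0.57 and 0.32.

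Single genes show the pattern. Uqcrq, a small subunit of complex III (chr11:53427922-53430831), had 91.3, 209 and 193 CPM, with tumour 1 apart from the others (edgeR adjusted p 0.842). Cox4i1 (chr8:120668222-120674207) had 365, 740.4 and 723 CPM, a 2.03-fold range (adjusted p 0.907). Ndufa1, an accessory subunit of complex I on the X chromosome (37187588 to 37191163), had 24.9, 53.9 and 54.9 CPM (adjusted p 0.918). Atp5mpl, a small membrane subunit of complex V, had 52.7, 102 and 112 CPM. In each of these genes tumours 2 and 3 lay close together.

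The 7 exceptions were Ndufab1, Ndufb2, Ndufs1, Sdha, Cox6a2 and Atp5l, lowest in tumour 3, and Atp5g2, lowest in tumour 2. They were counted after their values were seen. Atp5l had nearly equal values, with 139, 139 and 138 counts and a 1.01-fold range, the smallest of the members tested. Uqcrq had the largest range among the members tested, 2.29-fold.

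**Figure D4:**
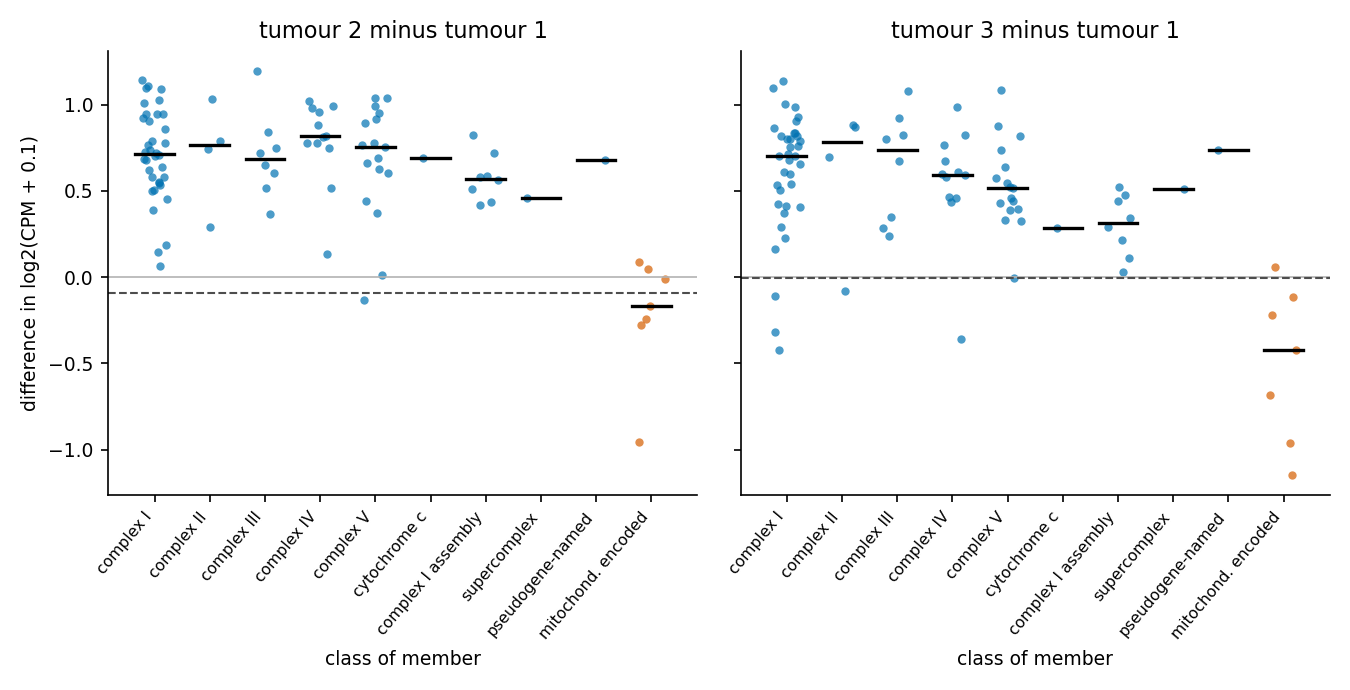
Difference in log2(CPM + 0.1) of each tested member from tumour 1, for tumour 2 (left) and tumour 3 (right), by class; bars are class medians and the dashed line is the median of all genes tested. Nuclear classes lie above the dashed line in both panels, and the mitochondrially encoded genes (orange) lie around or below it.

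Mitochondrially encoded genes had another order of tumours. None of the 7 tested was lowest in tumour 1, and 4 were highest there. Their median was -0.16 for tumour 2 minus tumour 1 and -0.42 for tumour 3 minus tumour 1. A trend on summed exon length and on GC content of the principal transcript was then removed from each library. After this step the second value was -0.03 and the first -0.19, so the lower level in tumour 3 depends on that step. The nuclear medians after the same step were 0.61 and 0.49, and 80 of 88 genes were lowest in tumour 1. Over all genes the step gave medians of 0.09 and 0.08 and 37.8% lowest in tumour 1. The difference between the genomes was not tested, since the 2 lists share libraries.

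Transcript length moved with the same contrast. When tested genes were put in 5 groups of near-equal size by length of the principal transcript, 57.6% of the shortest group (38 to 1560 nt) and 7.41% of the longest (4724 nt and over) were lowest in tumour 1. The median of tumour 2 minus tumour 1 fell from 0.40 in the shortest to -0.61 in the longest. Nuclear members are short, with a median of 891.5 nt against 2852 nt for all genes tested. The length and GC step above used summed exon length instead, which had a median of 1737 nt in the nuclear members tested. Among the 957 other genes under 1000 nt, 57.9% were lowest in tumour 1 and the medians were 0.40 and 0.30. The 48 nuclear members under 1000 nt had 93.8% and medians of 0.78 and 0.71. The 40 nuclear members of 1000 nt or more had 90% and medians of 0.64 and 0.52, whereas the 10418 other genes of that length had 26.5% and -0.13 and -0.04. The shift of the members was larger than that of other genes in both length ranges. The upper range is not matched for length, as members there reached 4715 nt and other genes 123179 nt. The part of length in the shift was not tested.

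**Figure D5:**
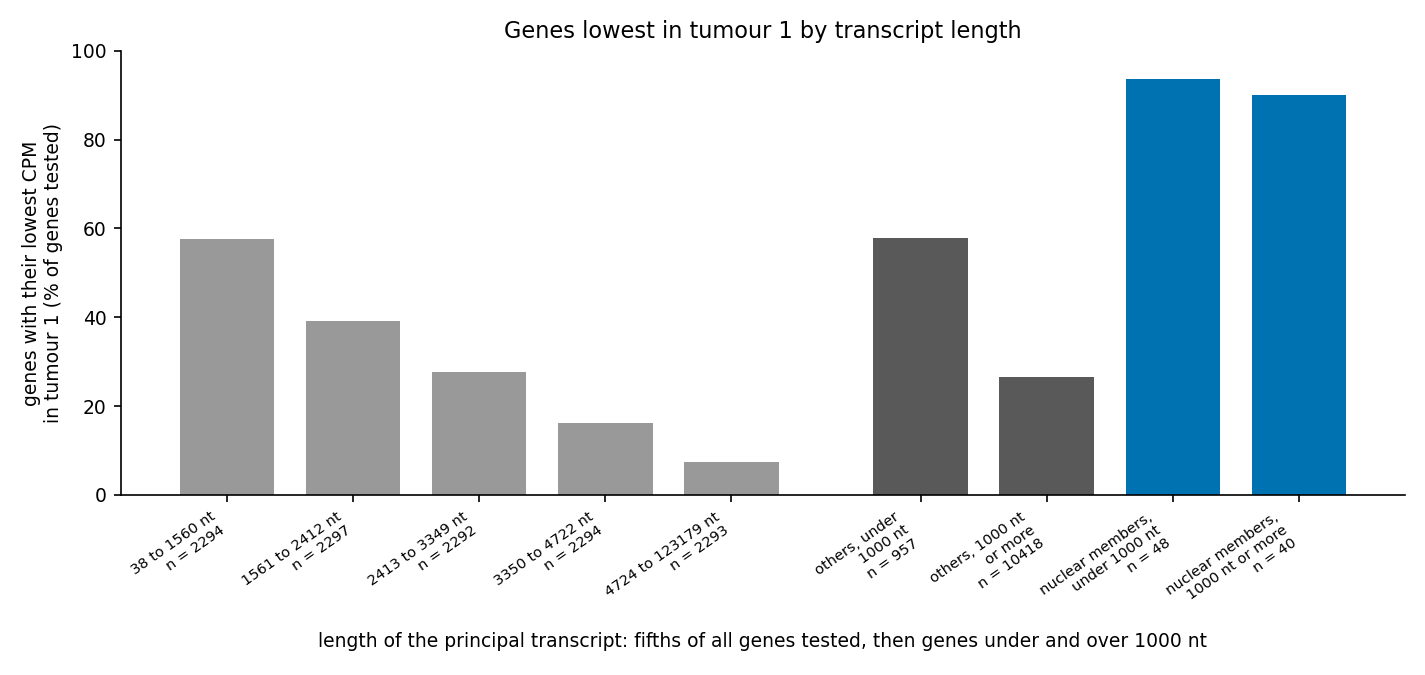
Percent of tested genes with their lowest CPM in tumour 1, for 5 groups of all genes by length of the principal transcript (light grey), other genes under and over 1000 nt (dark grey) and nuclear members under and over 1000 nt (blue). The share falls with length from 57.6% to 7.41% in all genes and is 93.8% and 90% in the nuclear members.

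Cell type markers also moved between the tumours. All 5 B cell markers were highest in tumour 1, with medians of -1.17 and -0.92 for tumours 2 and 3 minus tumour 1. After the length and GC step these medians were -0.50 and -1.06. Summed T cell markers were 13.6, 18.4 and 34.2 CPM, neutrophil markers 54.6, 18.4 and 2.85 CPM, erythroid markers 6.74, 21.2 and 143 CPM, and plasma cell markers 139, 567 and 308 CPM. The plasma cell markers had different orders of tumours. Xbp1 had 95.6, 151 and 62.0 CPM, Prdm1 the values given above and Sdc1 0.462, 0.466 and 0.332 CPM. Jchain of the same list passed the edgeR test (adjusted p 0.0363) with 36.3, 396 and 236 CPM and held most of the sum in tumours 2 and 3, and in the erythroid list Hbb-bs did (adjusted p 0.0234) with 2.64, 8.32 and 62.6 CPM. The part of these markers in the shift of the members was not tested.

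Exons of another gene overlapped 31 of the 96 nuclear members on the opposite strand and 5 on the same strand. Overlap took 25% or more of exon bases in 4, Ndufaf2, Atp5o, Ndufb6 and Ndufa13. Among 56 tested nuclear members with under 10% of exon bases overlapped and under 10% of windows repeated, 53 were lowest in tumour 1, with medians of 0.72 and 0.61. Nuclear members lie on 19 chromosomes, with 3 on the X chromosome.

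Nuclear genes of other mitochondrial functions were taken from gene lists. Of 77 tested genes of the mitochondrial ribosome, which translates the mitochondrial messengers, 66 were lowest in tumour 1, with medians of 0.70 and 0.37 for tumours 2 and 3 minus tumour 1. Mrpl12 led them with 378 ± 110 TPM. Of 18 genes of the tricarboxylic acid cycle 16 were lowest in tumour 1, but the medians were 0.38 and 0.22. Mdh2, the malate dehydrogenase, led with 454 ± 88.8 TPM, and Idh2 was lowest with 19.6 ± 3.42. Ogdh, a subunit of the oxoglutarate dehydrogenase, went the other way with 282, 273 and 91.5 CPM (edgeR adjusted p 0.518).

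Assembly factors other than the Ndufaf genes were mixed, with 18 of 35 tested lowest in tumour 1 and medians of 0.34 and 0.15. Coa5 led with 170.5 ± 14.7 TPM, and Sco2 was lowest with 1.11 ± 0.0603. Genes that replicate, transcribe or process mitochondrial DNA and RNA had 7 of 26 lowest in tumour 1, close to the share of all genes, and medians of 0.18 and -0.01. After the length and GC step these became 15 of 26 and 0.33 and 0.13, against 37.8% of all genes. Tfam, which packages mitochondrial DNA and starts its transcription, had 85.9, 115 and 91.7 CPM, and the mitochondrial RNA polymerase Polrmt 54.3, 50.9 and 54.9 CPM. Of 5 genes of supercomplexes and cardiolipin, the lipid of the inner membrane, 4 were lowest in tumour 1, with medians of 0.46 and 0.49, and Cox7a2l is among them. Cyc1 and Atpif1, the inhibitor of the ATP synthase, were both lowest in tumour 1, with medians of 0.79 and 0.71. None of these lists held a gene past the edgeR threshold.

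Of 11 nuclear regulators of these genes tested, 2 were lowest in tumour 1, against 29.6% of all genes, with medians of -0.08 and -0.13. After the length and GC step 4 of 11 were, against 37.8% of all genes, and the medians were 0.10 and 0.0026. Nrf1, a factor that binds many promoters of respiratory genes, had 46.0, 53.4 and 75.5 CPM, and Gabpa, the DNA-binding part of a second such factor, 141, 124 and 142 CPM. Myc had 849, 815 and 1067 CPM, the highest of the list by TPM at 1008 ± 156. Of the PGC-1 coactivators, Ppargc1a had 0, 0 and 0.0663 CPM, Ppargc1b 29.6, 25.4 and 33.2, and Pprc1 218, 135 and 185. None passed the edgeR test.

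Promoter sequences were available for 77 nuclear members among 27025 symbols (RefSeq, GRCm38.p6, 250 bases before to 50 after each start). A gene was counted if any of its promoters held a motif. The palindrome bound by NRF1, which is the core GCATGCGC with GC before it, was in 7 of the 77 (9.09%), against 1.07% of all symbols. They are shown with 10 flanking bases on either side, in the direction of the gene and with the motif in capitals.
Ndufa11: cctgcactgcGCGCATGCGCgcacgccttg
Uqcrc1: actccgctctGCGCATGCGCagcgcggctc
Cox6a1: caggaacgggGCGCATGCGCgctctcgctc
Atp5k: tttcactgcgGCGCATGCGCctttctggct
Atp5g2: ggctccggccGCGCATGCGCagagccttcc
Ndufaf4: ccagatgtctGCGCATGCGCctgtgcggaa
Ndufaf5: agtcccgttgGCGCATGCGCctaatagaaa

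These windows lie at chr17:56717692-56717721, chr9:108936668-108936697, chr5:115349101-115349130, chr5:108434430-108434459, chr15:102671070-102671099, chr4:24897960-24897989 and chr2:140170652-140170681, in the order shown. Allowing the shorter core GCATGCGC on either strand raised the number to 13 (16.9%, against 3.05% of all symbols). It added Cycs, Sdhb, Ndufa6, Ndufa8, Uqcr11 and Atp5l. The core is part of the palindrome, so these counts overlap. CCGGAAG, a core of the ETS sites that GABP binds, was in 19 (24.7%, against 9.93%), AAGATGGC, a YY1 site, in 11 (14.3%, against 3.19%), and TATAAA in 8 (10.4%, against 15.7%). Both strands were searched, and a match is a description of the letters, not of binding. The set of all symbols was not matched to the members for GC content or expression. Differences between tumours were also taken over the carriers. The median of tumour 2 minus tumour 1 was 0.65 in the 7 carriers of the palindrome, 0.75 in the 19 with CCGGAAG and 0.69 in the 11 with AAGATGGC, beside 0.72 in all nuclear members tested.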

How the data were processed

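The authors deposited raw counts of reads per gene in 1 file for each library. Per the submitters' processing notes, the tools were FastQC, STAR (2.5.2b) and featureCounts (1.6.0), on mm10. The sources used here do not give their settings, the use of strand, the treatment of reads that map to several places or the annotation release. Members and gene lists were chosen with earlier results of these data known.

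Lengths, coordinates (GRCm38, 1-based) and transcripts came from GENCODE release M21, which held all 109 members. Counts were scaled to the library total (CPM), and TPM used the union of annotated exons. Log values used a pseudocount of 0.1 on CPM and 1 on TPM. Genes were tested with edgeR 4.0.16 (R 4.3.3), as an intercept-only quasi-likelihood fit on TMM-scaled counts of the 11478 genes past filterByExpr. Each gene's deviance (2 residual degrees of freedom) was set against the prior variance (15.8 prior degrees of freedom) in a one-sided F test, and p-values were adjusted over all tested genes by Benjamini-Hochberg. filterByExpr removed 14 members, among them 6 mitochondrially encoded ones. Tested on simulated counts, 5 runs of 200 changed genes gave at most 6 false calls. Class levels were compared within tumours as differences of medians, with no test, and isoform pairs with an exact sign-flip test. Genes were named by role, by the highest and lowest TPM of a class and by the smallest p, and exceptions are stated. Values of some single genes are not reported here, and the B cell markers are those named.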

Additional observations from a re-analysis of the deposited data

How the results depend on the processing

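The count of 16 variable genes over all 11478 rested on the scaling, the filter and the libraries. It was 0 with library totals in place of TMM factors (smallest edgeR adjusted p 0.0769, 711 genes with an unadjusted p under 0.05), 0 when genes needed 10 counts on average (0.121, 781 genes) and 164 with no filter beyond 1 count. Leaving out each tumour in turn gave 0 to 11 calls, with 0 without tumour 1 and 0 without tumour 2. Under each of these settings, with DESeq2 size factors and without mitochondrially encoded genes, 0 members were called, and 0 to 3 had an unadjusted p under 0.05.

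Class differences in log2 depend on the length used. With the longest annotated transcript, complexes II, III, IV and V differed from complex I by 0.77, 0.78, -1.07 and 0.47. Without division by length the values were 1.10, 0.95, -0.075 and 0.37, and the mitochondrial minus nuclear difference was 3.61. The following settings, except the limit of 1 CPM, were chosen after seeing the data. With the principal transcript, complexes III, IV and V differed from complex I by 0.46, 0.075 and 0.58. With unrepeated windows in place of length the values were 0.49, 0.49 and 0.81. With members under 10% repeated they were 0.89, -3.79 and 0.59. Complex IV minus complex I thus changed sign with the principal transcript, with unrepeated windows and, at 1.06, with members above 1 CPM. Atp5g2 minus Atp5g1 was -0.60 and became 0.38 with the longest transcript, so their order is not settled. With 3 tumours, leaving out 1 cannot move a mean by more than its SD. Complex V minus complex I was 0.037 without tumour 2 and 0.127 without tumour 3, and Atp5g2 minus Atp5g1 was -0.33 without tumour 2. The shift of nuclear members from tumour 1 kept its direction with TMM factors (0.81 and 0.59), DESeq2 size factors (0.81 and 0.60) and mitochondrial genes left out of the totals (0.71 and 0.58), with 81 or 82 of 88 lowest in tumour 1.

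No paired analysis was possible because all 3 libraries belong to 1 group. The planned count of windows repeated in the genome was not run, and annotated transcripts were used in its place. Depth limits the genes at 0 to 3 counts, and the 50-base reads limit genes with identical copies. With 3 tumours the two-sided exact sign-flip p cannot fall under 0.25.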
